A study of Mus musculus with 18 samples.

Results

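The genes described here are 51 genes of DNA replication and S phase. They were chosen by name for their known roles, with earlier results of these data known. All 51 were found among the 13104 genes of the ESC table and the 13717 genes of the EpiLC table. The cells were mouse embryonic stem cells (ESCs) of the BVSC line, a single female clone that carries fluorescent reporters of Blimp1 and Stella, and epiblast-like cells (EpiLCs) derived from them. ESCs stand for the naive state of pluripotency before implantation and EpiLCs for the later, primed state. Each cell type was kept either in vehicle (ethanol, called mock-treated by the study) or in 100 nM of Δ9-THC, the main psychoactive compound of cannabis, and the exposed EpiLCs came from ESCs that had been exposed as well. There were 3 biological replicates in each of these 4 groups, and the question was which transcripts differed with the exposure in each cell type. RNA of primordial germ cell-like cells was not analysed here.

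Replication starts at origins, where the origin recognition complex, Cdc6 and Cdt1 load the MCM helicase before S phase. The kinase of Cdc7 and Dbf4, together with Cdc45, the GINS complex and Mcm10, then turns the loaded helicase into a moving one, polymerase alpha with primase lays down primers, and polymerases epsilon and delta extend the leading and lagging strands on the sliding clamp Pcna. Many of these genes are transcribed under the E2F factors, of which E2f1 is the member included here, and embryonic stem cells are known for a short cell cycle that is spent largely in S phase.

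The libraries held 23427551 to 32096698 counts, and the 51 genes took 0.950 to 1.12% of them. Levels are given as CPM, counts scaled to the size of the library, after TMM, a factor per library that centres the bulk of genes. The summed level of 12 naive markers was 4841 to 5207 CPM in the ESC vehicle libraries and 361 to 398 CPM in the EpiLC vehicle libraries, and that of the primed markers was 206 to 220 CPM and 1871 to 2227 CPM. Of the markers of other cells, 2 of 4 mesoderm, 1 of 5 endoderm and 2 of 3 trophoblast markers were detected in each cell type. Of 3 fibroblast markers, 2 were detected in ESCs and 3 in EpiLCs. In vehicle libraries of ESCs and EpiLCs, the sums reached at most 14.3 and 6.59 CPM for mesoderm and 3.39 and 1.03 CPM for endoderm. They reached 6.92 and 15.1 CPM for fibroblast markers and 135 and 30.3 CPM for trophoblast markers. Within ESCs, 2 of 8 measured primed markers passed the test as lower with THC, Pou3f1 (log2(fold-change) -0.96, edgeR adjusted p = 0.0265) and Sox3 (-0.40, edgeR adjusted p = 0.0498), while the summed primed level was 200 to 213 CPM in the THC libraries and none of the 12 naive markers passed. In both tables, a vehicle library and the THC library with the same number deviated from their group means in opposite directions, and over the 51 genes the correlation of these deviations was -0.999 to -0.983 (a description over genes, in 6 pairs of libraries). The authors had adjusted the counts for batches that are not named, and the part of that step in the mirrored deviations was not tested. High and low libraries below therefore come in mirrored pairs. Libraries tied in opposite directions make the difference between the groups vary more than a test by group alone counts. The p-values of such tests printed here therefore tend to be too small, and the calls made from them too many. With a block for the library number, the genes at an unadjusted edgeR p under 0.05 went from 3761 to 1454 in ESCs and from 2069 to 291 in EpiLCs. A further measure moved with the exposure in ESCs: 5 detected features from a list of RNA that lacks a long poly(A) tail and of features listed with it (among them Lars2, a protein-coding gene) summed to 1015 to 1074 CPM in the vehicle libraries and 1434 to 1580 CPM in the THC libraries, and 4 of them, the histone gene Hist1h1d, the mitochondrial mt-Rnr1 and mt-Tp, and Lars2, passed the test as higher. The same features spanned 1526 to 2862 CPM in vehicle and 1605 to 2953 CPM in THC libraries of EpiLCs, and the part of these features and of the primed markers in the results below was not tested.

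The replication genes were abundant transcripts in both cell types. Per kilobase of exon, 50 of the 51 genes lay above the median of all genes in the vehicle libraries, which was 5.41 CPM per kb in ESCs and 4.68 CPM per kb in EpiLCs, while the median of the 51 genes was 28.5 and 28.6 CPM per kb. The mismatch repair gene Msh6, which recognises base mismatches behind the fork, had the highest level in ESCs, at 248 ± 4.57 CPM per kb (SD, n = 3). The sliding clamp Pcna had the highest level in EpiLCs, at 182 ± 22.0 CPM per kb, and was at 176 ± 8.64 CPM per kb in ESCs. Both places rest on the length used: per kilobase of the longest transcript, the histone chaperone Nasp was the highest in both cell types, at 281 CPM per kb in ESCs and 406 CPM per kb in EpiLCs. The 6 genes of the MCM helicase ring, Mcm2 to Mcm7, lay close together, between 68.0 CPM per kb for Mcm2 and 157 CPM per kb for Mcm3 in ESCs. With the length of the longest transcript in place of all annotated exons, the ratio between the highest and the lowest of these 6 genes in ESCs went from 2.31 to 1.37. In EpiLCs this ratio went from 1.95 to 2.06. The highest and lowest genes changed in both cell types, so the order within the ring rests on the choice of length. The 4 GINS subunits spread more widely, from 7.68 CPM per kb for Gins3 to 58.3 CPM per kb for Gins4, and kept this spread with the other length. Per kilobase of exon Nasp (118 ± 3.06 CPM per kb in ESCs) and the ligase Lig1 (98.9 ± 0.981 CPM per kb), which seals Okazaki fragments, were also near the top.

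The flap nuclease Fen1 stood apart at the bottom, at 0.861 ± 0.0642 CPM per kb in ESCs and 0.669 ± 0.132 CPM per kb in EpiLCs. Of the exonic bases of Fen1, 84.2% also lie in exons of Tmem258 or Gm10143, and reads that fit more than 1 gene were not assigned by the authors' counting, so its level and its changes are uncertain. The same overlap covered 67.3% of the exonic bases of Gins2, 52.5% of those of Chaf1a and 29.8% of those of Orc2, and under 16% in each of the other genes.

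**Figure D1:**
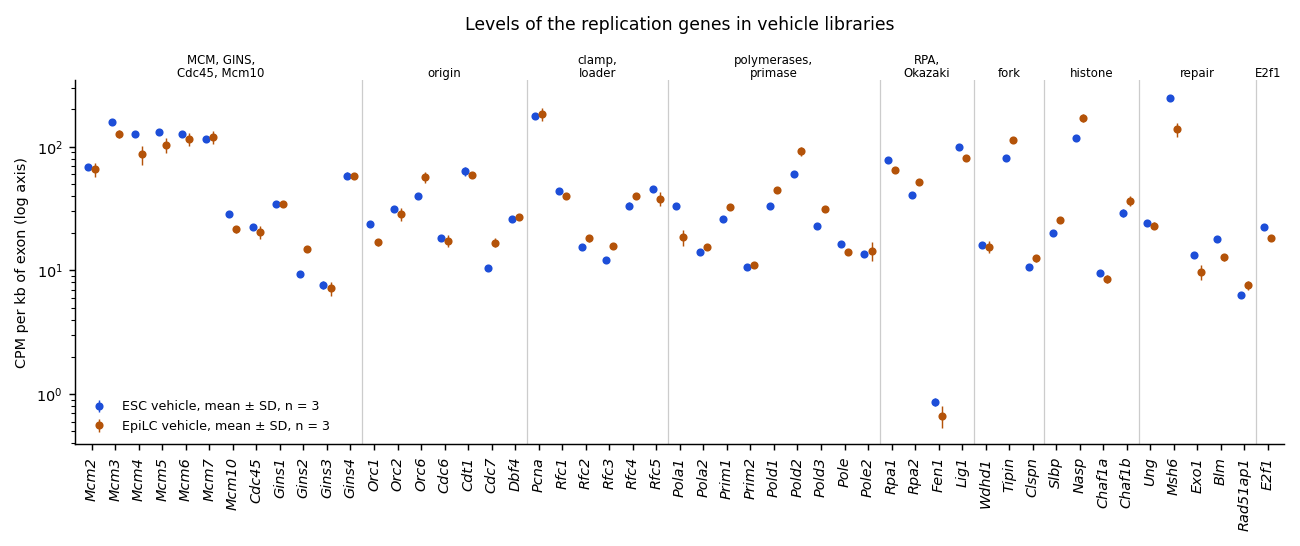
Mean level ± SD of each replication gene in the 3 vehicle libraries of ESCs and of EpiLCs, in CPM per kilobase of exon on a log axis, with the genes ordered by role. Msh6, Pcna and Mcm3 are at the top in ESCs and Pcna, Nasp and Msh6 in EpiLCs, and Fen1, at 0.861 CPM per kb in ESCs, is far below the rest.

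Levels in the vehicle libraries were set side by side between the cell types without a test, because the tables had been adjusted separately. In these values 25 of the 51 genes were higher in EpiLCs and 26 in ESCs, the median difference was -0.052 on the log2 scale, and no gene differed by a factor of 2. With 1 TMM scaling over the 12 libraries the median difference was -0.049. Libraries did not overlap for 19 genes higher in EpiLCs and 14 higher in ESCs, beside 37.1% and 38.4% of the 12410 genes in both tables. Msh6 had 1056, 1096 and 1078 CPM in ESCs and 567, 685 and 547 CPM in EpiLCs, a ratio of 1.80, and Pola1, the catalytic subunit of polymerase alpha, had a ratio of 1.77 in the same direction. The helicase genes Mcm4 and Mcm5, the origin gene Orc1 and the repair helicase Blm were also higher in ESCs, by ratios of 1.45, 1.29, 1.41 and 1.41. In the other direction, the kinase gene Cdc7 had 46.0, 41.0 and 45.0 CPM in ESCs and 75.8, 64.7 and 70.6 CPM in EpiLCs, a ratio of 1.60. All 3 subunits of polymerase delta among the 51 genes were higher in EpiLCs, Pold2 by 1.51, Pold3 by 1.37 and Pold1 by 1.36, as were Nasp by 1.44, Orc6 by 1.41 and the fork protection gene Tipin by 1.38. Mcm2, Mcm7 and Pcna overlapped between the cell types, so within the helicase ring Mcm3, Mcm4 and Mcm5 separated while Mcm2, Mcm6 and Mcm7 did not.

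RefSeq promoter windows (GRCm38.p6) matched 42 of the 51 genes, and the 250 bases before the start were searched on both strands for the E2F letters TTTCCCGC, TTTCGCGC, TTTGCCGC or TTTGGCGC, for CCAAT, and for the cell cycle homology letters TTTGAA. At least 1 of the E2F words was found for 8 of the 42 genes (19.0%), namely Mcm5, Mcm6, Mcm7, Cdc6, Orc1, Gins3, Rfc3 and Pola1, and for 2.16% of the 27025 genes in the reference table. CCAAT was found for 26 of the 42 genes (61.9%, against 37.5% of all genes) and TTTGAA for 7 (16.7%, against 18.3%). Many genes have other starts than those in the table, and a match describes letters, not a bound site. Printed 5′ to 3′ on the strand of the gene are the windows of Mcm5 (chr8:75109259-75109508, plus strand), Mcm6 (chr1:128359706-128359955, minus strand) and Pola1 (chrX:93632156-93632405, minus strand), which hold E2F words, and of Slbp (chr5:33652575-33652824, minus strand), the gene on which the comparison in ESCs turns, which holds none and has CCAAT at 3 places. Runs of 5 capitals mark CCAAT or its reverse ATTGG, and longer runs mark the E2F words, some of which overlap a second one on the other strand. With THC, the 8 genes with E2F words had a median log2(fold-change) of 0.014 in ESCs and -0.13 in EpiLCs, and the 34 genes without them 0.032 and -0.085.
Mcm5: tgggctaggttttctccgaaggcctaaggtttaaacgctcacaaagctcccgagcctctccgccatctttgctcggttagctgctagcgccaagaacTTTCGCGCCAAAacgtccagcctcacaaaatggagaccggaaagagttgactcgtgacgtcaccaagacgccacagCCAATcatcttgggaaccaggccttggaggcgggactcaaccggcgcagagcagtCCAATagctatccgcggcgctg
Mcm6: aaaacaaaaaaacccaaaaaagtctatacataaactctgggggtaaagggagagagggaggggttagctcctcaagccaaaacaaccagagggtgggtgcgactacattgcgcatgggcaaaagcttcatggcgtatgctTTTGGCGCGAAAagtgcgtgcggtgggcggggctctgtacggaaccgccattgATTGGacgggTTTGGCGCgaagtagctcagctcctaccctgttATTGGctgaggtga
Pola1: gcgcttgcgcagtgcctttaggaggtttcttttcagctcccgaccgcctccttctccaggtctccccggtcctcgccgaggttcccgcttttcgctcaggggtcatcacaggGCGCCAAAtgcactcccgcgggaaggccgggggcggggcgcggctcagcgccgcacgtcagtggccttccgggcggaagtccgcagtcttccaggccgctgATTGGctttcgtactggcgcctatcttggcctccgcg
Slbp: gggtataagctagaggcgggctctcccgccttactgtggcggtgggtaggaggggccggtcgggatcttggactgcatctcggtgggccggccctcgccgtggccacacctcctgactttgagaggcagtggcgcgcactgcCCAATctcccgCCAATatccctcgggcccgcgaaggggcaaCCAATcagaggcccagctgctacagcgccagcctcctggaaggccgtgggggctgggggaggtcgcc

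In ESCs, 1 of the 51 replication genes passed the test between THC and vehicle at an adjusted p of 0.05 (edgeR quasi-likelihood test, Benjamini-Hochberg adjustment over 13104 genes). That gene was Slbp, which encodes the protein that binds the stem-loop of replication-dependent histone mRNAs and carries them through processing and translation. Over all genes 906 passed (6.91%), 441 of them higher with THC (3.37%), and whether 1 of 51 differs from that share was not tested. The 51 genes had a median log2(fold-change) of 0.019, against 0.0041 for all genes, and 34 of them had a value above 0. Between the libraries numbered 1, 2 and 3 their median log2 difference was 0.016, 0.074 and -0.033. Vehicle 2 was the lowest library for 22 of the 51 genes and THC 2 the highest for 20, beside 16.9% and 16.6% of all genes. Without both libraries numbered 2, the median was 0.0027 and 28 of the 51 genes had values above 0.

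Slbp (ENSMUSG00000004642, chr5:33634952-33652574 on the minus strand of GRCm38, GENCODE M21) had 126, 115 and 122 CPM in the vehicle libraries and 138, 151 and 143 CPM in the THC libraries. Every THC library was above every vehicle library, and the log2(fold-change) was 0.25 ± 0.049 (SE) with an adjusted p of 0.0399 in edgeR. With DESeq2 its adjusted p was 0.00375. The call ended with offsets for GC content and exonic length (log2(fold-change) 0.18, edgeR adjusted p = 0.159). It ended in the fit over the 12 libraries (edgeR adjusted p = 0.127) and with a block for the number that ties the libraries (edgeR adjusted p = 0.414, with 5 genes called in the whole table). It ended as well when any 1 of the 6 libraries was left out, with edgeR adjusted p-values from 0.0721 to 0.135 and values from 0.21 to 0.28. In these bulk libraries, more cells in the phase that expresses Slbp and more Slbp RNA per cell cannot be told apart. An overlap with Gm10459 covers 7.80% of its exonic bases. In EpiLCs Slbp had 155, 166 and 147 CPM in the vehicle libraries and 146, 137 and 155 CPM in the THC libraries, the groups overlapped, and the log2(fold-change) was -0.10 ± 0.074 (SE).

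Without adjustment, 10 genes had a p under 0.05 in the higher direction and 1 in the lower, which is 11 of 51, while 28.7% of all genes had such a p. The groups did not overlap for 14 of the 51 genes, which is 27.5%, beside 32.6% of all genes. Of the 14, 13 were higher with THC and 1 was lower, beside 16.7% and 15.9% of all genes. They are named here after their values were seen: Orc1, Cdc7, Dbf4, Pcna, Prim1, Pold3, Pole2, Wdhd1, Tipin, Clspn, Slbp, Nasp and Blm were higher, and Pold1 was lower. With offsets for GC content and length, the values of Dbf4, Prim1, Nasp and Pold1 turned to the other side of 0.

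Among the origin genes, 6 of 7 had values above 0 in ESCs, with a median of 0.077 (0.0067 with the offsets for GC content and length), and none passed the test. Dbf4, the activating partner of the Cdc7 kinase, had 230, 227 and 229 CPM in the vehicle libraries and 242, 245 and 244 CPM in the THC libraries. The difference was small in size but larger than the spread in either group. Its log2(fold-change) was 0.090 ± 0.023 (SE), with an edgeR adjusted p of 0.0603. The spread, 0.600% of the mean in vehicle and 0.694% in THC, was below the counting error of 1.22% and 1.26%. Cdc7 itself had 46.0, 41.0 and 45.0 CPM in the vehicle libraries and 46.1, 51.5 and 47.5 CPM in the THC libraries, and its lowest THC library was just above its highest vehicle library. Orc1, the largest subunit of the origin recognition complex, was at 82.7 ± 2.77 CPM in vehicle and 89.0 ± 2.70 CPM in THC (SD, n = 3). The loader Cdc6 had 91.9, 96.2 and 96.9 CPM in the vehicle libraries and 98.2, 94.1 and 93.8 CPM in the THC libraries, which overlapped. Its partner Cdt1 had 214, 181 and 202 CPM in the vehicle libraries and 178, 208 and 190 CPM in the THC libraries, with THC 1 the lowest of all and vehicle 1 the highest. With the offsets for GC content and length, Dbf4 went to -0.055 and Cdt1 to 0.059, both on the other side of 0.

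The MCM helicase genes and their activators did not separate in ESCs. Of the 12 genes, 6 had values above 0 and 6 below, all between -0.069 and 0.067, and none passed the test or had groups that did not overlap. Mcm2 had 480, 464 and 476 CPM in the vehicle libraries and 457, 474 and 465 CPM in the THC libraries, and all 6 values lay within the range of 457 to 480 CPM set by the libraries numbered 1. Mcm5 had 519, 519 and 545 CPM in the vehicle libraries and 518, 519 and 496 CPM in the THC libraries, with 4 libraries level and those numbered 3 at either end. Mcm10, which helps to activate the helicase, was at 219 to 220 CPM in vehicle and 218 to 220 CPM in THC, a spread below the counting error of its 5212 to 7206 counts. The spread between replicates was below the counting error for 7 of the 51 genes in the ESC vehicle group and 8 in the ESC THC group, against 31.7% and 33.0% of all genes. Dbf4, Prim1 and Pole2, whose THC and vehicle libraries did not overlap, were among these genes in both groups. Cdc45, which travels with the helicase, had 75.4, 81.9 and 80.8 CPM in the vehicle libraries and 85.4, 78.7 and 80.3 CPM in the THC libraries.

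Pcna (ENSMUSG00000027342, chr2:132249162-132253314 on the minus strand) had 433, 398 and 434 CPM in the vehicle libraries and 451, 490 and 453 CPM in the THC libraries. The THC libraries were all above the vehicle libraries, and the log2(fold-change) of 0.14 ± 0.050 (SE) did not pass the test (edgeR adjusted p = 0.123) and was 0.068 with the offsets for GC content and length. The 5 clamp loader genes Rfc1 to Rfc5, which open the clamp and place it on DNA, had values from -0.088 for Rfc5 to 0.047 for Rfc1, and the groups overlapped for each of them. Among the polymerases the smaller subunit of primase, Prim1, had 102, 100.0 and 102 CPM in the vehicle libraries and 106, 109 and 107 CPM in the THC libraries, which did not overlap. Pold3, an accessory subunit of polymerase delta, had 109, 99.2 and 107 CPM in the vehicle libraries and 110, 121 and 114 CPM in the THC libraries, with the lowest THC library just above the highest vehicle library. Pold1, the catalytic subunit of the same polymerase, was the one gene of the 51 whose THC libraries were all lower, with 166, 155 and 160 CPM in the vehicle libraries and 141, 151 and 148 CPM in the THC libraries. The difference had a log2(fold-change) of -0.13 ± 0.040 (SE) and an edgeR adjusted p of 0.0925. Pold1 also has the highest GC content of the 51 genes, 61.0%, and with the offsets for GC content and length its value went to 0.043 and that of Prim1 to -0.0032. Pola1, Pola2, Prim2, Pold2 and Pole overlapped, with values from -0.053 to 0.059. Pole2, the second subunit of polymerase epsilon, was at 39.2 ± 0.933 CPM in vehicle and 41.8 ± 1.08 CPM in THC and did not overlap.

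All 3 genes of fork protection had THC libraries above the vehicle libraries in ESCs, and none of the 3 passed the test. Tipin, which with its partner Timeless keeps the helicase and the polymerases together, had 147, 152 and 160 CPM in the vehicle libraries and 176, 171 and 163 CPM in the THC libraries, and THC 3 lay closest to the vehicle libraries. Its log2(fold-change) of 0.15 ± 0.043 (SE) was the second highest of the 51 genes (edgeR adjusted p = 0.0758). Clspn, the claspin gene of the replication checkpoint, was at 77.3 ± 1.97 CPM in vehicle and 82.0 ± 1.95 CPM in THC, and Wdhd1, which ties polymerase alpha to the helicase, at 118 ± 2.26 and 123 ± 2.12 CPM. With the offsets for GC content and length, Tipin went to 0.0085, and the median of the 3 genes from 0.085 to 0.020. Among the histone and chromatin genes, Nasp had 862, 896 and 905 CPM in the vehicle libraries and 957, 923 and 918 CPM in the THC libraries, again without overlap, and its log2(fold-change) of 0.072 turned to -0.079 with the offsets. Chaf1a and Chaf1b, subunits of the chromatin assembly factor that places histones behind the fork, overlapped, with values of -0.054 and 0.037. Of the 5 repair genes all had values above 0, led by Blm with 165, 154 and 155 CPM in the vehicle libraries and 167, 180 and 180 CPM in the THC libraries. Rad51ap1, a gene of homologous recombination, had 32.2, 29.4 and 29.5 CPM in the vehicle libraries and 30.4, 33.6 and 33.5 CPM in the THC libraries, with 1 THC library inside the vehicle range. The nuclease Exo1, the uracil glycosylase Ung and Msh6 overlapped as well, with values from 0.017 to 0.046. The single-strand binding genes Rpa1 and Rpa2 and the ligase Lig1 had values of 0.018, 0.072 and 0.011, Fen1 had -0.10 at about 2.09 CPM, and none of the 4 separated. E2f1 had 73.6, 67.9 and 72.1 CPM in the vehicle libraries and 66.4, 72.2 and 68.5 CPM in the THC libraries, which overlapped.

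**Figure D2:**
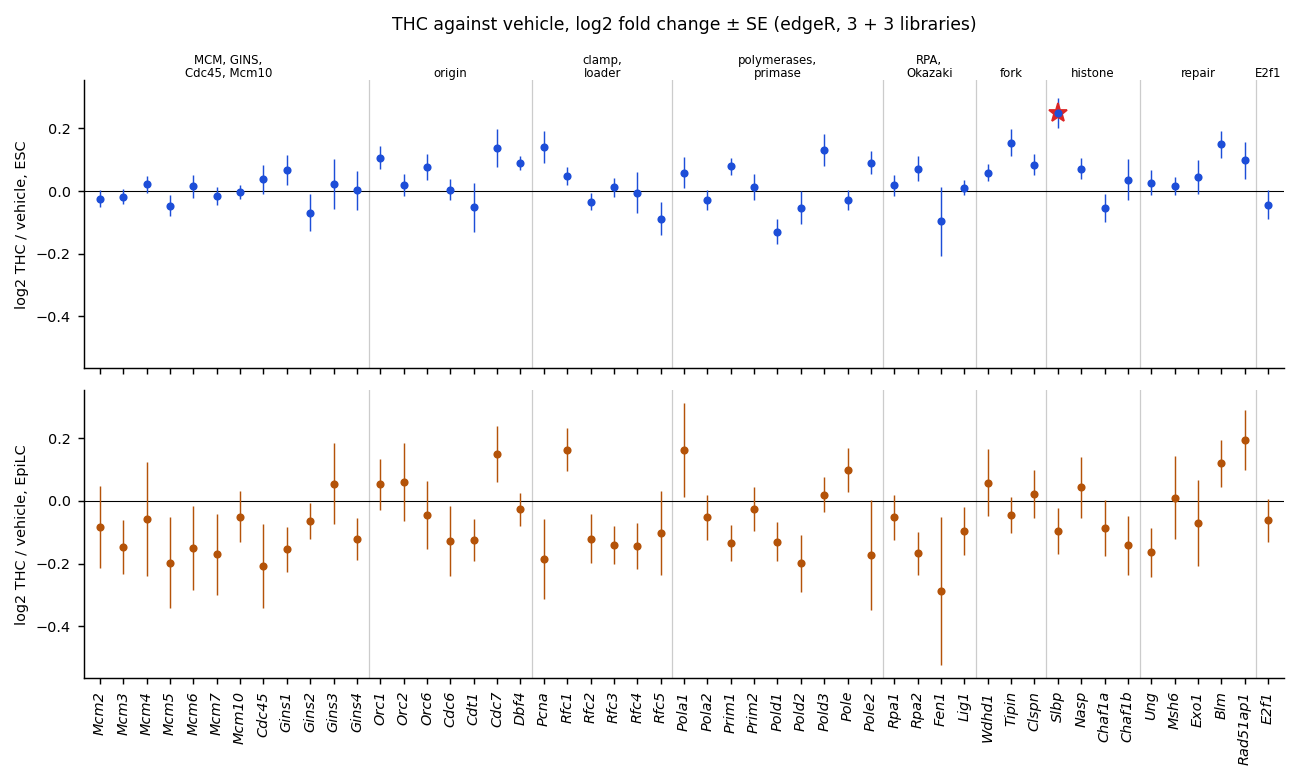
Log2 fold change between THC and vehicle libraries ± standard error for each replication gene in ESCs (upper panel) and EpiLCs (lower panel), with the genes ordered by role and 3 libraries in each group. The star marks Slbp in ESCs, the only one of the 51 genes past an adjusted p of 0.05 in either panel, and 37 of the 51 genes lie below 0 in EpiLCs.

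In EpiLCs, none of the 51 replication genes passed the test in edgeR, and none of all 13717 genes did (0%). At an unadjusted p under 0.05 the count was 1 of the 51 genes, Rpa2, and 15.1% of all genes. DESeq2 called 0 of the 51 genes (0.751% of all genes with an adjusted p), with 0 of the 51 at an unadjusted p under 0.05. Most of the genes had values below 0: 37 of 51 were lower with THC, with a median log2(fold-change) of -0.084, against 0.0030 for all genes. In the fit without offsets, most of this direction came from 1 pair of libraries. Vehicle 2 was the highest of the 6 libraries for 24 of the 51 genes and THC 2 the lowest for 24, while 19.0% of all genes were highest in vehicle 2 and 19.3% were lowest in THC 2. Between the libraries numbered 2 the median log2 difference of the 51 genes was -0.20, between those numbered 1 it was -0.0042, and between those numbered 3 it was 0.0033. Without both libraries numbered 2, the median was 0.015, 28 of the 51 genes had values above 0 and none passed the test, with 8 at an unadjusted p under 0.05, 4 in each direction, beside 4112 of all genes.

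**Figure D3:**
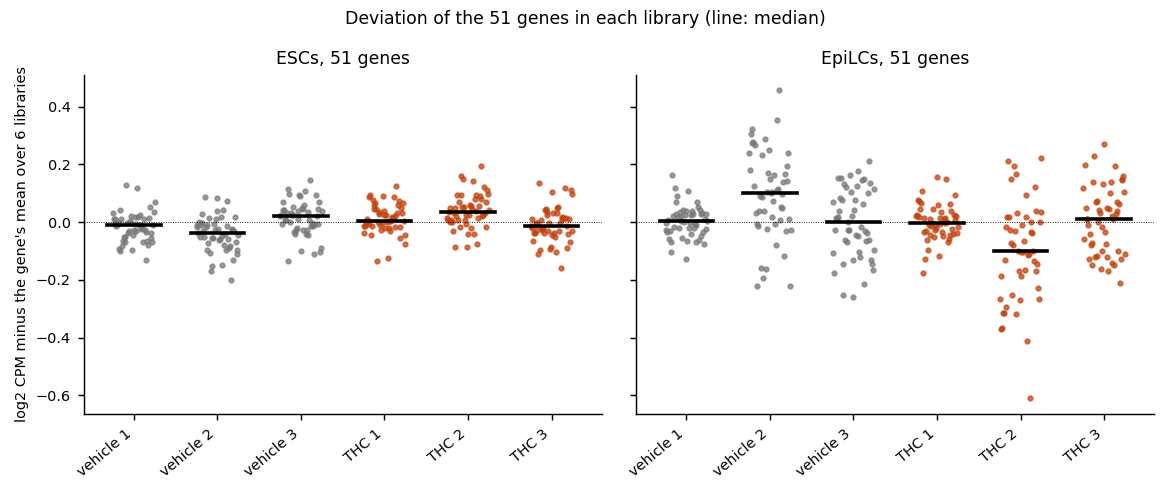
Log2 CPM of each of the 51 genes minus that gene's mean over the 6 libraries of its cell type, by library, with vehicle in grey and THC in orange and a line at the median. In EpiLCs the median is 0.10 in vehicle 2 and -0.10 in THC 2, and near 0 in the other 4 libraries.

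The helicase genes were among those that followed this pair. Mcm5 had 381, 474 and 372 CPM in the vehicle libraries and 384, 294 and 392 CPM in the THC libraries, with a log2(fold-change) of -0.20 ± 0.15 (SE) and an edgeR adjusted p of 0.564. Vehicle 2 was the highest and THC 2 the lowest, and the other 4 libraries lay between 372 and 392 CPM. Mcm2 had 438, 519 and 408 CPM in the vehicle libraries and 447, 365 and 477 CPM in the THC libraries, with the same libraries at both ends. Mcm3, Mcm4, Mcm6 and Mcm7 had vehicle 2 highest and THC 2 lowest as well, with values from -0.17 to -0.058. Of the 12 genes in the group 11 were lower with THC (median -0.13), and Gins3, at 19.5 ± 2.51 CPM in vehicle, was the exception with 0.055. Cdc45 had 61.7, 79.7 and 73.7 CPM in the vehicle libraries and 71.5, 54.0 and 60.7 CPM in the THC libraries, and after Fen1 its value of -0.21 ± 0.13 (SE) was the lowest of the 51 genes. Gins1 was the 1 gene of the group whose libraries did not overlap, with 55.7, 50.8 and 51.2 CPM in the vehicle libraries and 44.1, 49.2 and 48.4 CPM in the THC libraries.

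Pcna had 414, 498 and 400 CPM in the vehicle libraries and 407, 328 and 420 CPM in the THC libraries, with a log2(fold-change) of -0.18 ± 0.13 (SE), and without the libraries numbered 2 its value was 0.011. Across all 51 genes the groups did not overlap for 6 in EpiLCs, which is 11.8%, beside 21.8% of all genes (11.2% higher and 10.6% lower). Gins1, Rfc3, Rfc4, Prim1 and Pold1 were lower with THC, and Rfc1 was higher. Rfc3 and Rfc4 (edgeR adjusted p = 0.348 and 0.411) thus lay on the other side of 0 from Rfc1, with none of them past the test. Whether genes of the clamp loader differ in direction was not tested. Rfc1, its large subunit, had 246, 229 and 251 CPM in the vehicle libraries and 264, 287 and 261 CPM in the THC libraries, with a log2(fold-change) of 0.16 ± 0.069 (SE) and an edgeR adjusted p of 0.335. Rfc3, a small subunit, had 54.5, 58.7 and 58.7 CPM in the vehicle libraries and 54.2, 50.9 and 50.9 CPM in the THC libraries. Pold1 was lower again, with 208, 219 and 228 CPM in the vehicle libraries and 208, 199 and 192 CPM in the THC libraries, and Pold2 was at -0.20 with overlapping groups. Pola1 had 158, 191 and 144 CPM in the vehicle libraries and 192, 151 and 208 CPM in the THC libraries, a mean that was higher with THC (0.16) in groups that overlapped.

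Among the origin genes in EpiLCs, Cdc6 had 87.8, 102 and 83.0 CPM in the vehicle libraries and 86.1, 72.7 and 90.9 CPM in the THC libraries, again with vehicle 2 highest and THC 2 lowest. Cdt1 had 175, 188 and 193 CPM in the vehicle libraries and 179, 168 and 164 CPM in the THC libraries, with the libraries numbered 3 at either end. Dbf4, which separated in ESCs, had 233, 239 and 232 CPM in the vehicle libraries and 231, 228 and 233 CPM in the THC libraries, which overlapped. Cdc7 had 75.8, 64.7 and 70.6 CPM in the vehicle libraries and 71.8, 84.7 and 77.8 CPM in the THC libraries. The values of Dbf4 and Cdc7 were -0.027 ± 0.052 (SE) and 0.15 ± 0.089 (SE), and neither passed the test. Orc1, Orc2 and Orc6 overlapped, with values of 0.053, 0.059 and -0.044. Rpa2, the middle subunit of the single-strand binding complex, had 146, 159 and 163 CPM in the vehicle libraries and 147, 137 and 134 CPM in the THC libraries, with 1 THC library inside the vehicle range. Its log2(fold-change) of -0.17 ± 0.069 (SE) had an unadjusted edgeR p of 0.0487 and an adjusted p of 0.330. Fen1 had the lowest value of the 51 genes, -0.29 ± 0.24 (SE), at 1.37, 1.98 and 1.50 CPM in vehicle and 1.60, 0.944 and 1.45 CPM in THC. Rad51ap1 had the highest, 0.19 ± 0.10 (SE), with 39.6, 33.3 and 36.3 CPM in the vehicle libraries and 37.9, 45.4 and 41.7 CPM in the THC libraries. Msh6 had 567, 685 and 547 CPM in the vehicle libraries and 639, 511 and 662 CPM in the THC libraries, a wide spread in both groups. E2f1 had 56.5, 55.3 and 61.0 CPM in the vehicle libraries and 55.7, 57.7 and 52.1 CPM in the THC libraries, which overlapped. Tipin, Clspn and Wdhd1, which had all separated in ESCs, overlapped in EpiLCs with values of -0.045, 0.021 and 0.058, and the histone genes Nasp, Chaf1a and Chaf1b had 0.043, -0.087 and -0.14.

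**Figure D4:**
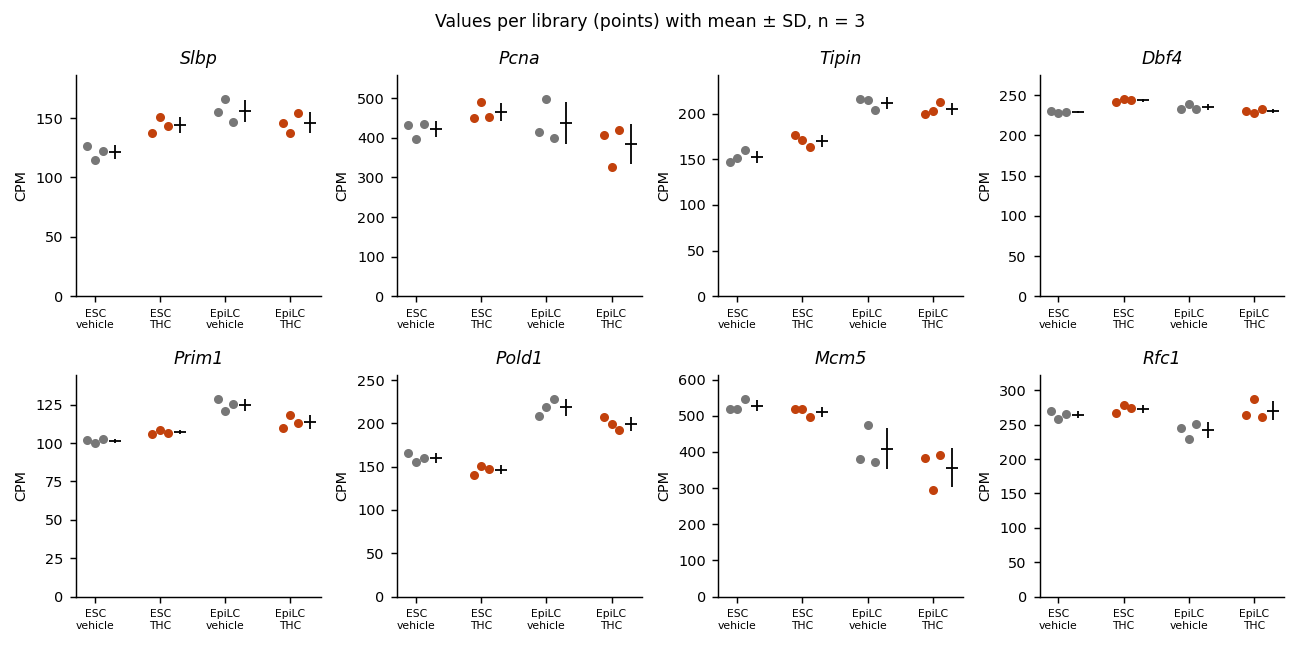
CPM of 8 genes in each of the 12 libraries, with the mean ± SD of the 3 libraries of each group, on axes that start at 0. Slbp, Pcna, Tipin, Dbf4 and Prim1 have all THC libraries above the vehicle libraries in ESCs, and Mcm5 and Pcna in EpiLCs spread from vehicle 2 at the top to THC 2 at the bottom.

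The difference of the THC effect between the cell types, tested as an interaction over the 12 libraries, passed for none of the 51 genes in edgeR and for 4 of the 12410 genes in both tables (0.0322%). Without adjustment 5 of the 51 genes had a p under 0.05, all with a lower effect in EpiLCs, against 13.7% of all genes. DESeq2 called 0 of the 51 genes and 1.07% of all genes, with 7 of the 51 at an unadjusted p under 0.05. The largest difference among the 5 was that of Slbp, -0.33 ± 0.093 (SE) on the log2 scale (edgeR adjusted p = 0.153), followed by Rpa2 at -0.22, Gins1 at -0.21, Prim1 at -0.20 and Tipin at -0.18. Prim1 was the only gene of the 51 that separated in both cell types in opposite directions, with all THC libraries above vehicle in ESCs (log2(fold-change) 0.079 ± 0.026 (SE)) and all below in EpiLCs (log2(fold-change) -0.13 ± 0.058 (SE)). In EpiLCs Prim1 had 128, 121 and 126 CPM in the vehicle libraries and 110, 118 and 113 CPM in the THC libraries. With the offsets for GC content and length its value in ESCs was -0.0032. The edgeR adjusted p of the interaction was 0.239 without the offsets and 0.386 with them. Pold1 was lower in both, with differences of -0.13 in ESCs and -0.13 in EpiLCs. Between the cell types, 13 of the 51 genes had values above 0 in both, 16 below 0 in both, 21 above 0 in ESCs and below 0 in EpiLCs, and 1, Pole, the reverse.

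The differences of the 51 genes in ESCs varied with the GC content of their transcripts, which ranged from 38.9% in Nasp to 61.0% in Pold1. Across the 51 genes the Spearman correlation between GC content and the log2(fold-change) was -0.73 in ESCs and -0.42 in EpiLCs, and across all genes it was -0.54 and -0.30, a description over genes that share the same 6 libraries. In EpiLCs the values also varied with exonic length (0.47 across the 51 genes, 0.34 across all genes). At the ends of the range in ESCs, Nasp, Dbf4 and Tipin, with the lowest GC content, had values of 0.072, 0.090 and 0.15, and Pold1, Pold2 and E2f1, with the highest, had -0.13, -0.053 and -0.044. The trend had exceptions, such as Rfc4, with 43.5% and a value of -0.0046, and Rpa2, with 51.5% and 0.072. When each library's trend with GC content and exonic length was entered as an offset, 20 of the 51 genes changed sign in ESCs and 8 in EpiLCs, the median became 0.0098 in ESCs and -0.10 in EpiLCs, and no gene of the table was called. Slbp stayed the highest of the 51 genes in ESCs under these offsets, at 0.18, and E2f1 went from -0.044 to 0.076. The correlation across the 51 genes was then 0.33 in ESCs and 0.00398 in EpiLCs. Across all genes it was 0.0025 and -0.00049. In ESCs the offsets thus left a trend of the opposite sign in the 51 genes. The turned values of single genes are an alternative, not a correction. Whether the trend with GC content arose in the cells or in the making of the libraries was not tested.

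**Figure D5:**
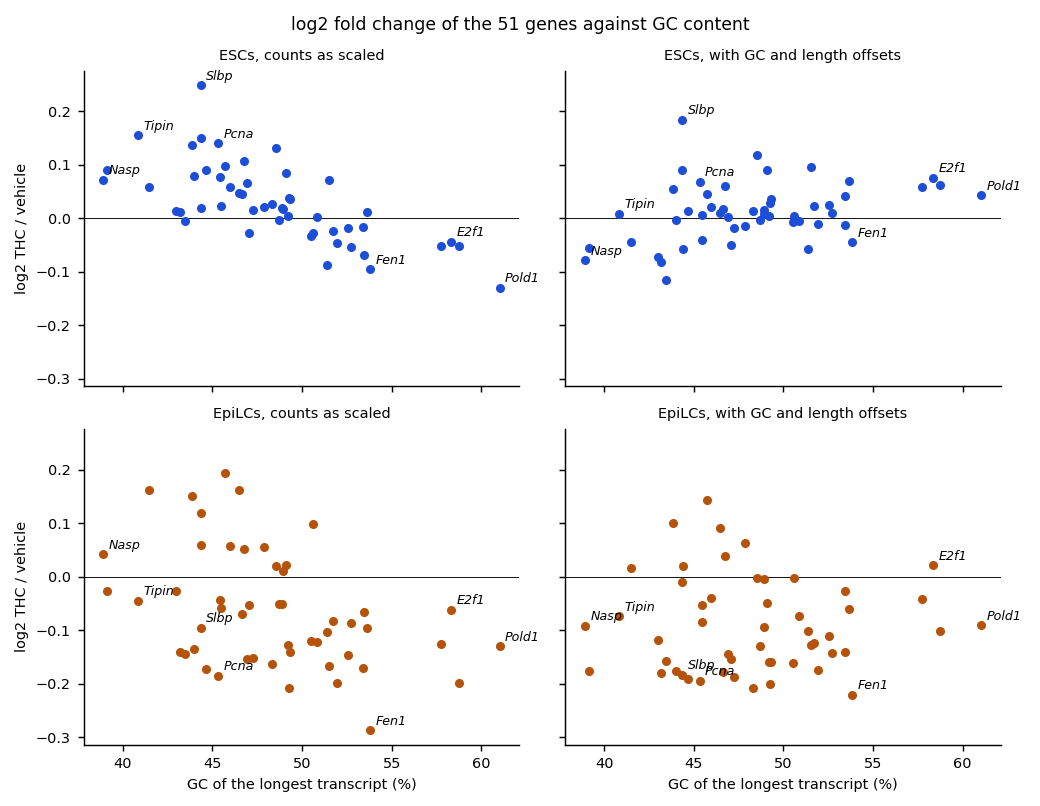
Log2 fold change between THC and vehicle against the GC content of the longest transcript for the 51 genes, in ESCs (upper panels) and EpiLCs (lower panels), without (left) and with (right) offsets for GC content and length. In ESCs the points fall from the upper left to Pold1 at the lower right (Spearman correlation -0.73), and with the offsets they no longer fall (0.33).

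Genes of related processes also had mostly small values. Of 36 further replication genes measured, 27 were higher with THC in ESCs, with a median of 0.061, and 3 passed the test, beside 6.91% of all genes, all of them higher: Orc4, an origin subunit, Dscc1, which loads the clamp for sister chromatid cohesion, and Hells, a chromatin remodeller. In EpiLCs 15 of the 36 were higher, with a median of -0.034, and none passed. Of 10 genes that supply deoxynucleotides, 9 were higher in ESCs (median 0.071), 1 of which, Cmpk1, passed the test, and 9 were lower in EpiLCs (median -0.070), with none past the test. Of 25 mitosis genes, 16 were higher in ESCs (median 0.029), Bub1 and Mad2l1 passed the test as higher and Plk1 as lower, and 13 were higher in EpiLCs, where none passed. Whether these shares of calls differ from that of all genes was not tested. With the offsets for GC content and length the medians in ESCs became 0.020, 0.052 and 0.0017 for the 3 lists, those in EpiLCs became -0.075, -0.12 and -0.058, and no gene was called.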

How the data were processed

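Poly(A)+ RNA of 12 mouse libraries (ESCs and EpiLCs, vehicle or 100 nM Δ9-THC, 3 biological replicates each) had been sequenced with 1 of 2 library kits, and which library had which kit is not given in the sources used here. The deposited values are whole-number counts per gene: the authors aligned reads with STAR (unique hits, a genome named both mm10 and GRCm39), counted exons with HTSeq in union mode without strand, removed genes with low counts and adjusted each cell type's table with ComBat-seq for batches that are not named. Without strand, reads of overlapping genes on opposite strands cannot be told apart.

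Genes with more than 10 counts in total were tested in R 4.3.3 with edgeR 4.0.16 (TMM, two-sided quasi-likelihood test, Benjamini-Hochberg over the whole table, threshold 0.05), within each cell type by group alone and, for the difference between cell types, as an interaction over the genes of both tables. The tests were checked on simulated counts drawn independently for each library, a check that cannot show how they behave on libraries tied in opposite directions. Standard errors come from the same fits. Levels per kb used exonic lengths of GENCODE M21 (GRCm38), matched by gene ID for 13085 of 13104 genes in ESCs and 13698 of 13717 in EpiLCs. Alternatives were RLE size factors, other filters, DESeq2 1.42.0, a replicate block, offsets for GC content and length (natural splines, 5 df), 1 fit of 12 libraries, and leaving out libraries. Depth, given with the libraries above, limits the precision by counting error. The p-values measure the spread left between 3 libraries of 1 cell line after the authors' adjustment.

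The 51 genes, the related lists and the alternatives were chosen with earlier results of these data known. Named with values in both cell types were genes past the threshold, the 2 highest and 2 lowest values in each cell type, the highest and lowest levels per kb, and Pcna, Mcm2, Mcm5, Cdc6, Cdt1 and E2f1. Other genes were named after their values were seen.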

Additional observations from a re-analysis of the deposited data

Results flagged for a closer look

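Prim1, the catalytic subunit of primase, stood out because its libraries moved in opposite directions in the cell types. All 3 THC libraries of ESCs were above all 3 vehicle libraries, and all 3 THC libraries of EpiLCs were below, so that the effect of THC in EpiLCs less that in ESCs was -0.20 ± 0.068 (SE) on the log2 scale. The edgeR interaction test gave an adjusted p of 0.239, which did not pass the threshold. With offsets for GC content and length the value in ESCs was -0.0032, and that in EpiLCs was -0.18. Its GC content is 44.0%, and in both ESC groups its spread between replicates was below the counting error.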

How the results depend on the processing

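The count of calls in ESCs depended on the GC offsets, the libraries in the fit and the treatment of single libraries. With RLE size factors, without a filter, with at least 10 counts in every library and with DESeq2, 759 to 906 genes and 1 replication gene were called. With offsets for GC content and length, 0 genes and 0 replication genes were called, and in a fit over the 12 libraries 31 and 0. Leaving out 1 library at a time gave 0 to 1 genes and 0 replication genes in ESCs, 0 genes in EpiLCs and 0 genes in the difference between the cell types. The median of the replication genes was then 0.015 to 0.038 in ESCs and -0.11 to -0.037 in EpiLCs, and the value nearest 0 in EpiLCs was that without vehicle 2. DESeq2 called 87 genes in EpiLCs and 133 in the difference, the fit over the 12 libraries 411 in EpiLCs, and the offsets 0 in the difference. The causes were not tested.

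Labels number the replicates alike in both groups. Deviations of same-numbered libraries correlated at -0.987 to -0.977 over all genes, and those of libraries with different numbers at 0.22 to 0.70, so same-numbered libraries were tied in opposite directions. The main test was by group alone, which takes too small a spread for the difference between groups tied in this way. Its calls, that of Slbp among them, are to be read beside those with a block. A block for the replicate number left 5 genes and 0 replication genes called in ESCs, 0 genes in EpiLCs and 0 in the difference. The block together with the offsets gave 1, 0 and 0 genes and 0 replication genes.

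Both libraries of 1 number were left out together as an alternative chosen after seeing the data. Without those numbered 1 in ESCs, 1757 genes and 4 replication genes (Slbp, Rfc5, Rad51ap1 and Blm) were called, and without those numbered 2 or 3, 0 genes and 0 replication genes. The median in EpiLCs was 0.015 without those numbered 2. Directions turned for 10 named genes whose values did not pass the test, given here as log2(fold-change). With the offsets, and with the offsets and the block, Mcm2 went to 0.023 and 0.023 in ESCs, Cdt1 to 0.059 and 0.059, Pold1 to 0.043 and 0.043, and E2f1 to 0.076 and 0.076, while in EpiLCs Msh6 went to -0.0037 and -0.0048 and E2f1 to 0.022 and 0.022. In the fit over the 12 libraries, Cdc6 went to -0.011 in ESCs. Without both ESC libraries numbered 1, Cdc45 went to -0.034, Cdc6 to -0.040, Cdt1 to 0.054, Msh6 to -0.0079 and E2f1 to 0.0085. Without both EpiLC libraries numbered 2, Mcm2 went to 0.12, Mcm5 to 0.033, Cdc6 to 0.040, Pcna to 0.011 and Fen1 to 0.074. Msh6 went to -0.071 without those numbered 1 and -0.12 without those numbered 3, and E2f1 to 0.021 without those numbered 3. Leaving out 1 library at a time spanned -0.016 to 0.016 for Cdc6 and -0.11 to 0.0052 for Cdt1 in ESCs, and -0.17 to 0.022 for Mcm2 and -0.064 to 0.12 for Msh6 in EpiLCs. In all, of the alternatives for named genes, 427 kept direction and side of the threshold, 36 turned, 12 lost the call of Slbp and 1, that of Rad51ap1 without both ESC libraries numbered 1, passed the threshold.

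Depth was not short for most of these genes, but the counting error exceeds the spread between replicates for some, and with 3 libraries in each group the test rests on few degrees of freedom. The genes and lists cover transcripts alone, and adjusted counts keep neither the size nor the assignment of the batches.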
